A study of Mus musculus with 2 samples.

Results

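The miR-193 and miR-365 microRNAs (miRNAs) were followed in microvesicles (MVs), the small membrane vesicles that cultured cells shed into their medium. Members were chosen by name, as every entry of the deposited values whose name carries the stem mmu-miR-193, mmu-miR-193a, mmu-miR-193b or mmu-miR-365, which gave 6 of the 831 mouse entries. The set was proposed with its intensities known, in particular the EPO-MV/MSC-MV ratio of mmu-miR-365-3p, so the ratios below are descriptions of these arrays and were not tested. The MVs came from primary bone marrow mesenchymal stem cells (MSCs) of male C57BL/6 mice aged 4 weeks, at passage 3. In one culture the medium held erythropoietin (EPO), the hormone that drives red cell formation, at 100 IU/ml for 48 h (EPO-MVs, 1 array), and in the other it held no EPO (MSC-MVs, 1 array). Both media contained fetal bovine serum and both MV preparations were pelleted by ultracentrifugation, so each array reports the RNA of a mixed vesicle pellet. Fewer vesicles that carry a miRNA and less of it per vesicle cannot be told apart in such a pellet.

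A miRNA is cut from a hairpin precursor, whose 2 sides are called the -5p and -3p arms. It pairs with messenger RNAs mainly through its seed, bases 2 to 8, and lowers their output. In the mouse genome the miR-193 and miR-365 hairpins lie side by side at 2 loci. In the RefSeq annotation of GRCm38.p6, Mir193a and Mir365-2 are neighbours on chromosome 11, and Mir193b and Mir365-1 are neighbours on chromosome 16, where both lie within the spans of the long non-coding RNA genes Gm32817 and Gm53058. All 4 hairpins are on the plus strand, and no other annotated gene lies wholly between the partners of either pair. Coordinates are left out because no build is named for the array values. The chromosome 16 pair is known from brown fat, where it is induced with the regulator Prdm16 and can restrain the muscle programme in cultured precursors. In other cells, miR-193a-3p and miR-193b-3p are known to target Mcl1 and Ccnd1, genes of survival and the cell cycle, and miR-365-3p is known to target interleukin 6 and, in cartilage cells, Hdac4.

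The hairpins are shown first because they carry the layout of the set. RefSeq sequences (GRCm38.p6) matched all 6 entries by name. The 4 precursors follow, 5′ to 3′, with the mature arms in capitals.
Mir193a: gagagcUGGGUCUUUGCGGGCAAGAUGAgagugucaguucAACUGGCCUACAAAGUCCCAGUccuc
Mir365-2: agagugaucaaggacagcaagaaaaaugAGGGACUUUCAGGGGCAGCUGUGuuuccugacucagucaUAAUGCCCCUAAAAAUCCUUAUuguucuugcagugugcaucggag
Mir193b: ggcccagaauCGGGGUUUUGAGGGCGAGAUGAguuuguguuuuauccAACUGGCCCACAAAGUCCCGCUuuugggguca
Mir365-1: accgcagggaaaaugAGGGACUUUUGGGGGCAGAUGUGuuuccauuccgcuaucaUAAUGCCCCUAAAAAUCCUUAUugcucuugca

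Mir365-1 and Mir365-2 yield the same -3p arm, so the single entry mmu-miR-365-3p sums the output of both loci and cannot assign it to either. Their -5p arms differ and have an entry each. The mature sequences below group the arms by seed, which is in capitals.
mmu-miR-365-3p: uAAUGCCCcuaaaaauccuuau
mmu-miR-193a-3p: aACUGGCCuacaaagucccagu
mmu-miR-193b-3p: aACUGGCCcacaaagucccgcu
mmu-miR-365-1-5p: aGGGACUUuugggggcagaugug
mmu-miR-365-2-5p: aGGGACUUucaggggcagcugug
mmu-miR-193a-5p: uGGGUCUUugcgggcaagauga
mmu-miR-193b-5p: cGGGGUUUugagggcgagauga

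The arms miR-193a-3p and miR-193b-3p share the seed ACUGGCC and 19 of 22 bases. Counted from the 5′ end, miR-193a-3p against miR-193b-3p reads U9C, A20G and G21C. The deposited values hold an entry for miR-193a-3p and none for miR-193b-3p. Whether the capture probe for miR-193a-3p also bound miR-193b-3p was not tested. The -5p arms of Mir365-1 and Mir365-2 share the seed GGGACUU and 20 of 23 bases, with U10C, G11A and A19C from miR-365-1-5p to miR-365-2-5p. The -5p arms of Mir193a and Mir193b differ at 5 of 22 positions, 2 of them in the seed. The seed of miR-365-3p, AAUGCCC, belongs to no other mature miRNA of the RefSeq table, and neither does that of miR-193a-5p or miR-193b-5p.

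The set held 2 bright entries and 4 dim ones. On each array every deposited value is a whole multiple of the smallest one, here called a step, and 1 unit of normalized intensity equals 471 steps for EPO-MVs and 447 for MSC-MVs. Steps are read here as the intensity before normalization, which is inferred because no raw readings were used. The -3p entries of miR-365 and miR-193a had at least 60 steps on both arrays, as did 463 of the 831 entries. The other 4 entries, all of them -5p arms, had between 6 and 34 steps. Probes differ in how strongly they bind and glow, so intensities of different entries were not read as relative amounts.

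The filter used throughout was a fold change of at least 1.5. As deposited, mmu-miR-365-3p passed it as lower in EPO-MVs and miR-365-2-5p as higher, and the remaining 4 of the 6 entries stayed within 1.5-fold. The call of miR-365-2-5p was lost with quantile normalization (1.17), lowess (1.23) and a pseudocount (1.18). With quantile normalization and with lowess, miR-365-1-5p passed as lower instead. Over all entries 211 of 831 (25.4%) passed the same filter, 148 of them higher and 63 lower in EPO-MVs. The share of higher entries among those called was 70.1% as deposited, 50.0% after quantile normalization and 48.9% after lowess. Of the 6 entries 33.3% passed the filter, and nothing is read from it because the set was chosen with these ratios known. The median EPO-MV/MSC-MV ratio was 0.987 over the 6 entries and 1.04 over all entries. With 1 array per condition no difference has a replicate check, and a difference between arrays and one made by EPO cannot be told apart.

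**Figure D1:**
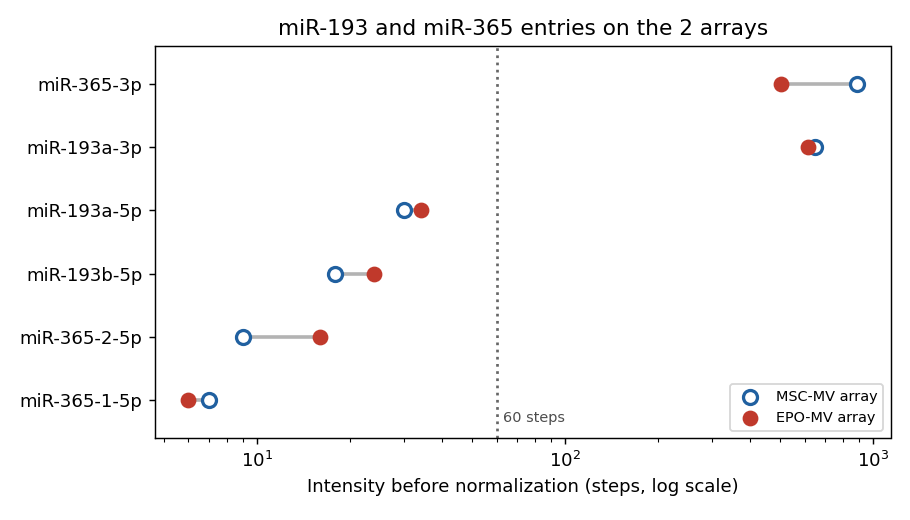
Intensity of each miR-193 and miR-365 entry in steps on a log axis, with 1 open point for the MSC-MV array and 1 filled point for the EPO-MV array. Steps are read as the intensity before normalization, which is inferred from the normalized values. miR-365-3p has 887 steps for MSC-MVs and 504 for EPO-MVs, and the 4 entries left of the dotted line at 60 steps are the -5p arms.

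For mmu-miR-365-3p, the arm shared by both loci, the arrays gave 887 steps for MSC-MVs and 504 for EPO-MVs, which are normalized intensities of 1.98 and 1.07. The EPO-MV array was the lower one, and its intensity was 0.539 of that on the MSC-MV array, a 1.85-fold difference and a log2 ratio of -0.89. Moving each array by 1 step in opposite directions gave ratios from 0.538 to 0.541, so the resolution of the values has little weight here. That range covers rounding only and says nothing about the spread between arrays.

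Because ratios of dim entries scatter more, entries were also split by mean log2 intensity into 4 classes of near equal size. mmu-miR-365-3p had the lowest ratio of the 208 entries of the brightest class, in which the median ratio was 0.942 and the log2 ratios had an SD of 0.30. In this class 18 entries (8.65%) passed 1.5-fold, and 16 of them (7.69%) were lower in EPO-MVs. Among the 463 entries with at least 60 steps on both arrays, 25 (5.4%) were lower by this filter and miR-365-3p held rank 3 from the lowest. Below it were miR-362-3p, with a ratio of 0.458, and miR-719, with 0.538. Next above it came miR-28b (0.541), miR-301a-3p (0.553) and miR-29a-3p (0.563), the last a regulator of collagen genes.

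**Figure D2:**
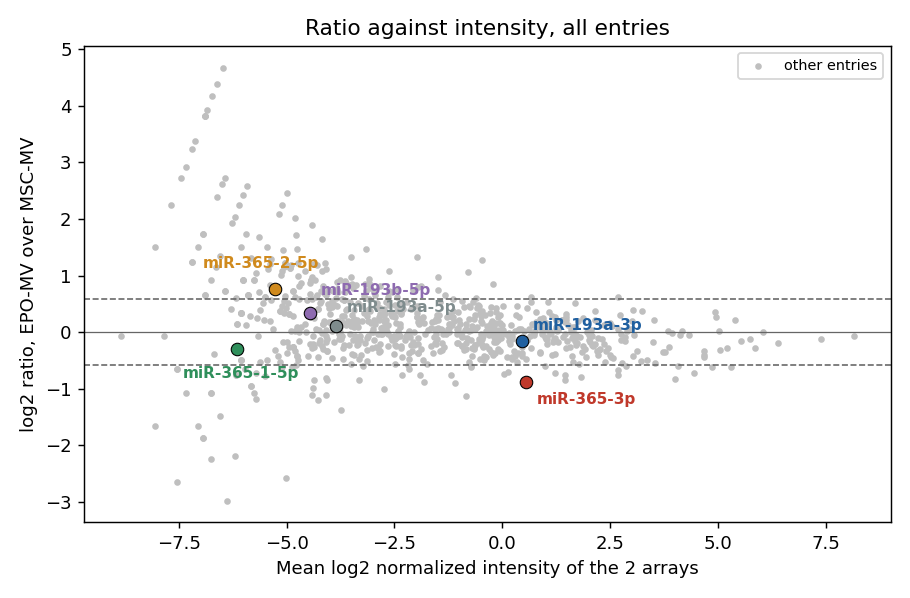
The log2 EPO-MV/MSC-MV ratio against the mean log2 normalized intensity of both arrays, with 1 point per entry and dashed lines at 1.5-fold. The spread narrows to the right, where miR-365-3p lies below the lower line at -0.89 and miR-193a-3p lies between the lines at -0.15.

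The -3p arm of Mir193a, the neighbour of Mir365-2, was close to equal in both kinds of MVs. This entry, miR-193a-3p, had 648 steps in MSC-MVs and 614 steps in EPO-MVs, normalized intensities of 1.45 and 1.30. The ratio was 0.899, within 1.5-fold, and 39.9% of the brightest class had a lower ratio. On the log2 scale the ratios of the bright members were -0.89 for miR-365-3p and -0.15 for miR-193a-3p. The arrays give no error for this gap, and the miR-365-3p entry holds the output of both loci, so it is not a comparison within the chromosome 11 pair.

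The -5p arms of the miR-193 hairpins were dim, with ratios above 1 as deposited that moved to 0.910 (miR-193a-5p) and 1.00 (miR-193b-5p) with quantile normalization and to 0.904 and 1.01 with lowess. For miR-193a-5p, the opposite arm to miR-193a-3p, 34 steps were read in EPO-MVs and 30 in MSC-MVs, a ratio of 1.08. For miR-193b-5p the readings were 24 and 18 steps, a ratio of 1.27. Neither passed 1.5-fold. In the second dimmest class, which holds miR-193a-5p, 22.1% of 208 entries passed the filter. In the dimmest class, which holds miR-193b-5p and both miR-365 -5p arms, 61.1% of 208 did, and 46.2% were higher in EPO-MVs.

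The -5p arms of miR-365 differed in direction although they share a seed. For miR-365-2-5p, from the chromosome 11 locus, there were 16 steps in EPO-MVs and 9 in MSC-MVs, a ratio of 1.69. For miR-365-1-5p, from the chromosome 16 locus, there were 6 and 7 steps, a ratio of 0.813. Shifting both arrays by 1 step in opposite directions moved miR-365-2-5p between 1.42 and 2.02, across the filter, and miR-365-1-5p between 0.593 and 1.11, across equality. The 7 steps that separate the arrays for miR-365-2-5p and the 1 step for miR-365-1-5p are near the smallest values the arrays can give. In the dimmest class as a whole, the median ratio was 1.40.

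Ratios of the arms of one hairpin were set side by side, which compares changes and not levels. In the Mir193a hairpin the log2 ratio was 0.11 for the -5p arm and -0.15 for the -3p arm, a difference of -0.26 that turned to 0.07 with quantile normalization and 0.02 with lowess. With the shared -3p arm at -0.89, the difference for Mir365-1 was -0.59, which turned to 0.20 and 0.14 under the same scalings. For Mir365-2 it was -1.65, and -1.04 and -1.15 under them. Of the 215 hairpins with an entry for each arm, the median absolute difference was 0.47, and it was 0.55 in the hairpins in which, as in these 3, only 1 arm reached 60 steps on both arrays. Of those, the middle range between the lower and upper quartile was 0.22 to 0.87, which holds Mir193a and Mir365-1 and which Mir365-2 exceeds. Arms that passed 1.5-fold in opposite directions occurred in 5 of the 215 hairpins, Mir365-2 among them as deposited. For Mir365-2 this rests on the dim miR-365-2-5p, which was within 1.5-fold with quantile normalization (1.17), lowess (1.23) and the pseudocount (1.18). The -3p entry is part of both miR-365 pairs, so these pairs are not separate observations.

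**Figure D3:**
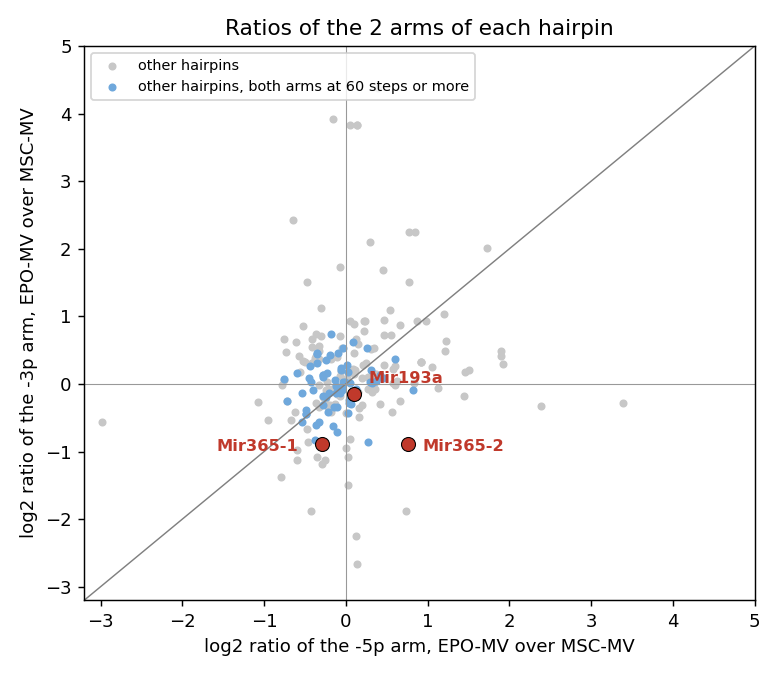
The log2 EPO-MV/MSC-MV ratio of the -3p arm against that of the -5p arm, with values as deposited, 1 point per hairpin and a line of equality. Mir365-1 and Mir365-2 share a height of -0.89 because they share the -3p entry, and Mir193a lies near the centre.

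Base composition was examined after the ratios were seen. mmu-miR-365-3p has a GC content of 31.8%, against 50.0% for miR-193a-3p and 54.5% to 60.9% for the 4 -5p arms. Among the 371 of 463 entries at 60 steps or more with a RefSeq sequence (80.1%), Spearman's correlation of GC content with the log2 ratio was 0.27. This is across entries of 1 pair of arrays that share their hybridization, so it is a description. Of the 111 entries with a GC content of 40.9% or less, 14 were at least 1.5-fold lower in EPO-MVs and the median ratio was 0.905. Of the 112 entries at 54.5% or more, 1 was lower and the median ratio was 1.09. At 60 steps or more on both arrays, 11 entries had the GC content of miR-365-3p, itself included. Their ratios ran from 0.539 to 1.25 with a median of 0.949, and miR-365-3p was the lowest. Of these 11, 3 were at least 1.5-fold lower in EPO-MVs, next to 25 of all 463 (5.4%). Below 60 steps, miR-374b-5p has the same GC content and a lower ratio (0.499). After a straight line of the log2 ratio on GC content was removed, the ratio of miR-365-3p was 0.593, against 0.539 as deposited. That line was fitted over entries that include miR-365-3p itself. The part that base composition played in the ratio was not tested.

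**Figure D4:**
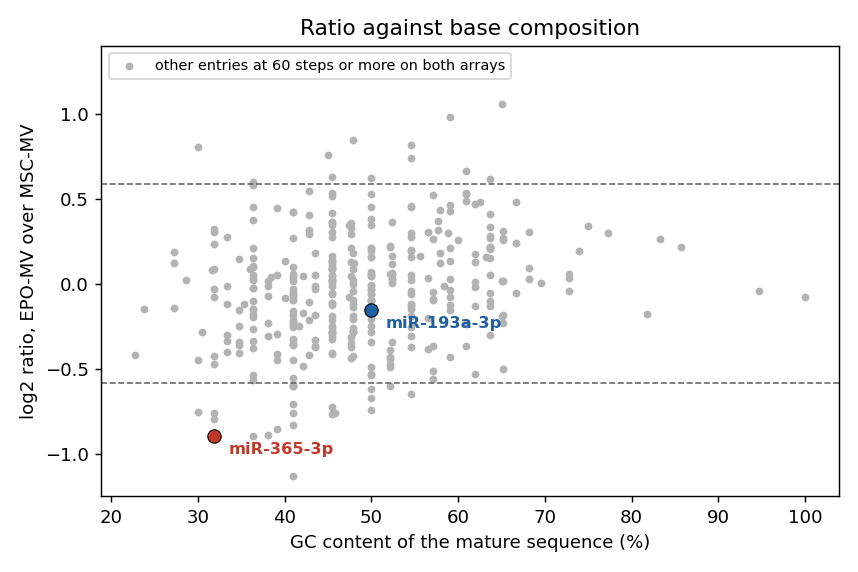
The log2 EPO-MV/MSC-MV ratio against the GC content of the mature sequence for entries with at least 60 steps on both arrays, with dashed lines at 1.5-fold. miR-365-3p lies at the low-GC end at 31.8% and below the lower line, and miR-193a-3p lies at 50.0% between the lines.

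All 6 stromal miRNAs of a marker list, which included miR-199a-5p, miR-214-3p and miR-21a-5p, were bright (3313 to 40369 steps) and as deposited lower in EPO-MVs, though miR-21a-5p moved to 1.00 with quantile normalization and 1.04 with lowess. Over all entries 466 of 831 were higher by any amount and the rest were lower. The stromal list had ratios from 0.648 to 0.873, of which 1 of 6 passed 1.5-fold, next to 8.65% of the brightest class and 25.4% of all entries. That entry, miR-143-3p, was within 1.5-fold with quantile normalization (0.680) and lowess (0.756), among other scalings. The median of the stromal list was 0.723, next to 0.942 in the brightest class. Its normalized intensities summed to 158 (EPO-MVs) and 205 (MSC-MVs), of which miR-21a-5p gave 78.9 and 90.3. Such sums lean on the brightest probes and were not read as amounts. Of the 6 blood-cell miRNAs listed, all were measured with 87 to 21839 steps and none was near the smallest value. They included the white blood cell marker miR-142-3p (20714 steps for EPO-MVs, 21839 for MSC-MVs) and the red cell markers miR-451a (1821 and 1915) and miR-144-3p (160 and 87). Ratios of the blood list ran from 0.659 for miR-223-3p to 1.75 for miR-144-3p with a median of 0.912, and 4 of 6 were below 1. Both of these extremes passed 1.5-fold, and no other blood entry did. The blood list's normalized intensities summed to 67.6 (EPO-MVs) and 79.9 (MSC-MVs), of which miR-142-3p gave 44.0 and 48.9. The liver miRNA miR-122-5p had 8 and 7 steps. The endothelial miR-126a-3p, the 1 of 2 listed names with an entry, had 72 and 116. Its ratio of 0.589 passed 1.5-fold as lower in EPO-MVs. The part that the makeup of the pellets played in the ratio of miR-365-3p was not tested.

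The entries most like the bright members were found by the distance of their log2 intensities over both arrays, which is a likeness over 2 values. The ratio is made of the same 2 values, so the ratios of near entries follow by construction and nothing is read from them. An entry with an extreme ratio also has fewer close neighbours by construction. Nearest to miR-365-3p were miR-669f-5p at 0.30, miR-190a-5p at 0.35 and miR-99a-5p at 0.37. Their ratios of 0.722, 0.747 and 0.693 were all within 1.5-fold. Closer neighbours surrounded miR-193a-3p, namely miR-30d-5p at 0.08, miR-101b-3p at 0.10 and miR-3572-3p at 0.14, with ratios of 0.832, 0.886 and 1.02.

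miRNAs with known roles in the choice between fat and muscle were counted as the setting in which the chromosome 16 pair is best known. The list of 23 names, among them miR-133, miR-206, miR-27, miR-30b and miR-30c, miR-155, miR-196a and miR-378, was found in part, as 21 of the names matched 43 entries. Of these, 6 were at least 1.5-fold higher and 5 were lower in EPO-MVs, 25.6% in all, next to 25.4% of all entries, and the median ratios were 0.926 and 1.04. At 60 steps or more on both arrays 27 entries were left, with 1 higher, 3 lower (14.8% in all) and a median ratio of 0.902. Over the 463 entries 15 were higher and 25 lower (8.64% in all), and the median ratio was 0.980. The lowest of the 27 was miR-30b-5p, with 861 steps for EPO-MVs against 1344 for MSC-MVs (0.608). Highest was miR-30c-1-3p, with 146 and 83 steps (1.67). The ratio of miR-365-3p was below that of each of these 27 entries, and that of miR-193a-3p was near their median. Because the set was proposed with the ratio of miR-365-3p known, nothing is read from its place against this list.

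The ratio of miR-365-3p was recomputed under other scalings and filters. It ran from 0.521 with re-centring on the median of all entries to 0.593 with the GC line removed, and it was past 1.5-fold and short of 2-fold in the 8 settings that can change a ratio. The 3 filters on dim entries kept the entry and leave its ratio as it is by construction. For miR-193a-3p the range was 0.869 to 0.954, within 1.5-fold in the same 8 settings. The dim miR-193 -5p arms stayed within 1.5-fold, and the miR-365 -5p arms crossed the filter. With quantile normalization and with lowess, miR-365-2-5p was within 1.5-fold (1.17 and 1.23) while miR-365-1-5p passed as lower (0.499 and 0.502), and with a pseudocount of 0.0573 miR-365-2-5p was at 1.18.

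**Figure D5:**
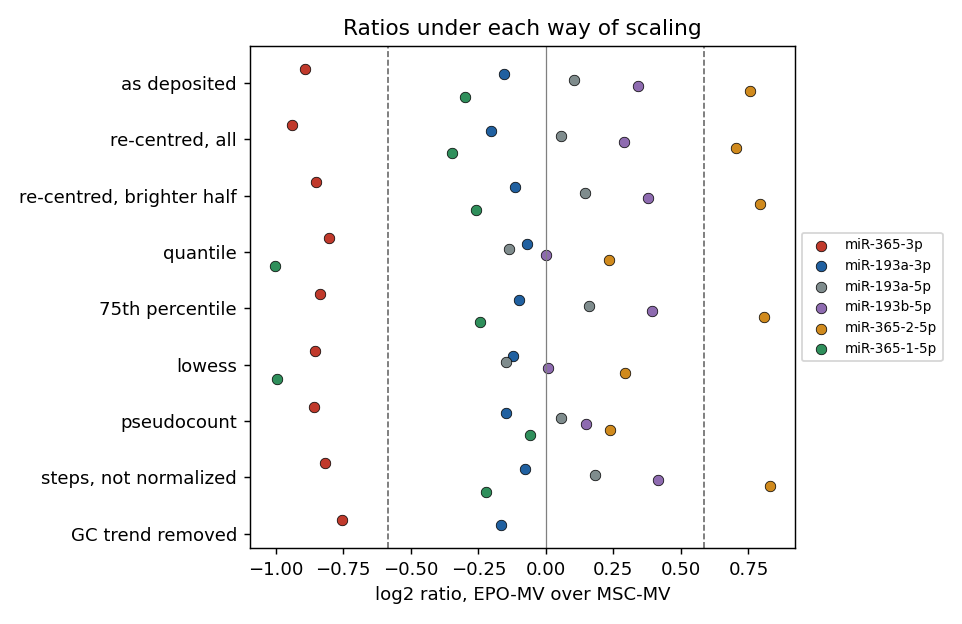
The log2 EPO-MV/MSC-MV ratio of each entry as deposited and under the other scalings, with dashed lines at 1.5-fold. miR-365-3p stays left of the lower line throughout, while miR-365-1-5p and miR-365-2-5p cross the lines between settings.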

How the data were processed

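According to the methods and labels, the authors labelled MV RNA (a Hy3/Hy5 kit in the methods, the dye Hy3 in the labels), hybridized it to the miRCURY LNA Array (v.18.0), scanned it on an Axon scanner and extracted the spots with GenePix Pro 6.0. Spots of the same miRNA were first merged into their mean. The factor for median normalization then came only from miRNAs reading 30 or more on both arrays. The deposited values are such normalized intensities, linear, 1 per entry and array. Any background correction and the selection of the 831 entries are not given in the sources used here.

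The EPO-MV/MSC-MV ratio was taken per entry with no pseudocount or filter. An entry was called when it differed by 1.5-fold or more in either direction, the threshold the article gives with its results. With 1 array per condition there is no test, and the number of arrays limits the precision. Steps were whole to within 0.0001. Sequences of 687 entries (82.7%) came from RefSeq, 7 of them through older gene names. The entries named by rule were the members, their seed mates, the 3 nearest entries, and the extremes of the fat and muscle list. Entries of the marker lists and those with the lowest ratios at 60 steps or more are named too. The members and lists were chosen with earlier results of these data known. The lowest ratios, hairpin and GC comparisons were added after the values were seen. The alternatives were 11 listed ones (thresholds, scalings, lowess with span 0.4, a pseudocount, filters) and 2 added after the values were seen. Counting was run on simulated arrays that were equal apart from exact 2-fold changes and held no noise. That checks the counting only and says nothing about how reliable the calls are. Python 3.11.15, pandas 2.3.3, numpy 2.4.6, statsmodels 0.14.6 and matplotlib 3.10.9 were used.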

Additional observations from a re-analysis of the deposited data

How the results depend on the processing

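Among the 6 entries, 2 passed the 1.5-fold filter. At 2-fold 0 passed, and 4 passed at 1.2-fold. With the pseudocount, with at least 60 or at least 30 steps on both arrays, and above the median intensity, 1 passed in each case, mmu-miR-365-3p; the filters left out 4, 3 and 4 of the 6 entries. Under quantile normalization and lowess 2 passed, miR-365-3p and miR-365-1-5p, in place of miR-365-2-5p. Over all entries the number was 211, and it moved to 88 at 2-fold, 460 at 1.2-fold, 54 with the pseudocount, 40 with 60 steps, 62 with 30 steps and 38 above the median intensity. The thresholds, the fewer entries and the shrinking of dim ratios by the pseudocount act by construction. The share of higher entries among those called was 70.1% as deposited, 53.7% with the pseudocount and 37.5% with 60 steps. Over the 6 other scalings, quantile normalization and lowess included, 188 to 224 entries were called. The GC line and the ratio of steps before normalization were added after seeing the data. No paired analysis was possible because only 1 array was run per condition. The values carry no background reading, so which dim arms lay above background is unknown.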
